A study of Mus musculus with 7 samples.

Results

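Hippocampi of Alzheimer-model mice given an antibody against CD38 were compared with hippocampi of mice of the same model given a control IgG. The groups were 7 FAD mice of the CD38 injection (FAD CD38) and 7 FAD mice of the IgG injection (FAD IgG), with 8 WT hippocampi of mice given PBS fitted alongside. These 14 FAD wells are part of 47 wells from 24 mice, in 7 sequencing pools that also hold cortex of the same animals. A well was taken when its name read FAD and HIPP and its treatment was the same in the well name and in the deposited sample sheet. The hippocampus of 1 further FAD mouse in pool 8 failed that rule, since its name gave IgG and the sheet CD38, and it was left out. FAD stands for a mouse model of familial Alzheimer's disease, which both compared groups carry. The labels name neither the line, its transgenes and their promoter, the sex and age of the mice, nor the clone, dose and schedule of the antibody. WT mice differ from FAD IgG mice in both genotype and injection, and the 2 cannot be told apart.

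CD38 is a membrane enzyme that breaks down NAD and makes the calcium messengers cyclic ADP-ribose and ADP-ribose. In brain it is found on astrocytes, microglia and other cells, and on immune cells it is a marker of activation. An antibody binds the protein, so the transcript level need not follow the injection. In amyloid models, microglia near plaques switch from a homeostatic program to a disease-associated one with genes such as Cst7 and Trem2, and astrocytes raise Gfap.

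Libraries were made by mcSCRB-seq, which barcodes the 3' ends of transcripts from each well before pooling. How reads of one molecule were collapsed is not given in the sources used here. Totals ran from 1428454 to 3072058 counts in FAD CD38 wells (mean 2514737) and from 2320448 to 4115439 in FAD IgG wells (mean 3236785). The means did not pass an exact permutation test over the 14 mice (two-sided p = 0.0641, adjusted over 4 measures p = 0.256). That test left out the pool, so it does not exclude a lower depth of FAD CD38 wells within pools. The FAD CD38 mouse of pool 7 stood apart from the rest, with the lowest total of the 14, a ribosomal RNA share of 17.2% and a mitochondrial share of 1.27%. Ribosomal RNA exceeded 10% of counts in that mouse, in 2 FAD IgG mice (pools 6 and 9) and in 1 WT mouse. The mean ribosomal RNA share was 7.08% ± 4.63 in FAD CD38 and 7.10% ± 4.27 in FAD IgG (SD, n = 7 each). Summed hippocampal markers (C1ql2, Prox1, Dsp, Spink8, Fibcd1 and Cabp7) reached 239 to 337 CPM (counts scaled to the library total) in FAD CD38 and 243 to 367 CPM in FAD IgG, against 14.9 to 26.6 CPM in FAD cortex, so the wells carried their labelled region. Choroid plexus markers summed to 18690 CPM in the FAD CD38 mouse of pool 7 and to 9445 CPM in the FAD IgG mouse of pool 9, with medians of 35.1 and 59.4 CPM in the 2 groups.

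No gene passed. Of 12728 genes tested by edgeR's quasi-likelihood test with the pool as a covariate, 0 (0%) had a Benjamini-Hochberg adjusted p under 0.05 for FAD CD38 against FAD IgG, and the smallest adjusted p was 0.9998. At an unadjusted p under 0.05 stood 197 genes (1.55%), of which 99 were higher and 98 lower in FAD CD38 mice. DESeq2 called 0 with 158 at that level. This is less than the share of 0.05 that tests without any effect would give. The share was 5.87% with the ribosomal RNA share as a covariate and 8.3% in limma voom with sample quality weights. Both fits called 0 genes, and the cause of the different shares was not tested. In the same fit 570 genes (4.48%) were higher and 53 (0.416%) lower in FAD IgG than in WT hippocampus, a comparison that shares the FAD IgG mice. The 95% interval of the log2 fold change reached 0.395 on either side for the median gene. What follows gives sizes and intervals, not calls.

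Cd38 transcripts were low in both groups. The lowest, median and highest values were 4.98, 7.10 and 9.31 CPM in FAD CD38 hippocampus, against 5.79, 7.29 and 10.6 CPM in FAD IgG and a mean of 8.08 ± 2.71 CPM in WT. The groups overlapped over nearly their whole range, and FAD CD38 was higher in 3 of the 6 pools that hold both groups. The log2 fold change was -0.06 ± 0.23 (SE, 95% interval -0.53 to 0.41), and the two-sided exact permutation p over the 14 mice was 0.696. That interval bounds a loss or gain of the transcript in whole hippocampus, where fewer cells of a type and less RNA per cell cannot be told apart.

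Other enzymes that use NAD, and those that make it, gave no call either. Of 12 NAD consumers tested 8 were above 0 and 4 below, with a median log2 fold change of 0.07 beside 0.01 over all genes. Sarm1, the NAD hydrolase of axon degeneration, spanned 19.3 to 101 CPM in FAD CD38 and 18.4 to 51.7 CPM in FAD IgG, and its estimate of 0.25 ± 0.38 turned to -0.05 without the pool 7 mouse. Bst1, the CD38 paralog, had 0 counts in FAD CD38 and 4 in FAD IgG wells and was not tested. Of 10 NAD synthesis and transport genes 9 were below 0, with a median of -0.06, and Nampt, the rate-limiting enzyme of NAD salvage, averaged 28.6 ± 3.75 CPM in FAD CD38 and 28.8 ± 2.14 CPM in FAD IgG (SD, n = 7 each).

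The gene of smallest p was Ddo, which encodes D-aspartate oxidase, the peroxisomal enzyme that degrades D-aspartate. Its lowest, median and highest values were 2.52, 4.07 and 6.76 CPM in FAD CD38 hippocampus and 5.37, 6.28 and 7.43 CPM in FAD IgG. Of the FAD CD38 mice, 5 lay under the whole FAD IgG range and the other two inside it. The log2 fold change was -0.71 ± 0.20 (95% interval -1.12 to -0.30, edgeR adjusted p = 0.9998), lower in 6 of 6 pools, by as little as 5.97 CPM in FAD CD38 against 6.00 CPM in FAD IgG in pool 10. WT mice spread more widely than either FAD group, with 3.79 to 9.03 CPM. Without the pool 7 mouse, the lowest of all, the log2 fold change was -0.70.

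Pde7a, a phosphodiesterase specific for cAMP, led the genes that were higher. It had 7.96, 9.61 and 13.97 CPM as lowest, median and highest in FAD CD38 mice, against 6.27, 7.24 and 8.87 CPM in FAD IgG mice. All 7 FAD CD38 mice exceeded the FAD IgG mean, and the ranges overlapped through 1 mouse on each side. Its log2 fold change was 0.54 ± 0.15 (95% interval 0.23 to 0.85, edgeR adjusted p = 0.9998), with FAD CD38 higher in 6 of 6 pools by 0.06 to 0.98. WT hippocampus averaged 8.99 ± 1.22 CPM, between the 2 FAD groups. Of its list, 14 cAMP phosphodiesterases and cyclases, 8 were above 0 and 6 below (median 0.05), and Pde8a, another cAMP-specific enzyme, was at -0.30 ± 0.20.

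Depp1, an autophagy regulator that FOXO factors and glucocorticoids induce, rested on few counts, 87 in all FAD CD38 wells and 48 in all FAD IgG wells. Its lowest, median and highest values were 2.08, 5.04 and 7.98 CPM in FAD CD38, against 0.323, 1.63 and 3.85 CPM in FAD IgG. The FAD IgG mice of pools 9, 10 and 11 were the low ones, at 0.323, 0.429 and 1.18 CPM. FAD CD38 against FAD IgG gave a log2 fold change of 1.36 ± 0.40 (95% interval 0.53 to 2.19, edgeR adjusted p = 0.9998), higher in 5 of 6 pools. WT mice averaged 4.14 ± 1.5 CPM, closer to FAD CD38 than to FAD IgG, and FAD IgG against WT gave -1.14 (adjusted p = 0.11). Both estimates use the same FAD IgG mice, and Depp1 was picked by its p in the first. Low FAD IgG values therefore move the 2 estimates in opposite directions, and the place of WT is not independent evidence.

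Zrsr1, a paternally expressed splicing factor gene, split the FAD CD38 mice. Of these, 4 had 60.9 to 95.1 CPM, and the mice of pools 5, 6 and 7 had 21.4, 25.5 and 34.5 CPM. All FAD IgG mice had 16.7 to 23.2 CPM, and of the WT mice 1 had 90.1 and 1 had 59.9 CPM while the rest were at 15.6 to 21.6. A log2 fold change of 1.31 ± 0.38 resulted (edgeR adjusted p = 0.9998) and the cortex of the same mice gave 1.02 ± 0.45. Zrsr1 lies within an intron of Commd1 and has a close copy, Zrsr2, and how such reads were split is not given in the sources used here.

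**Figure D1:**
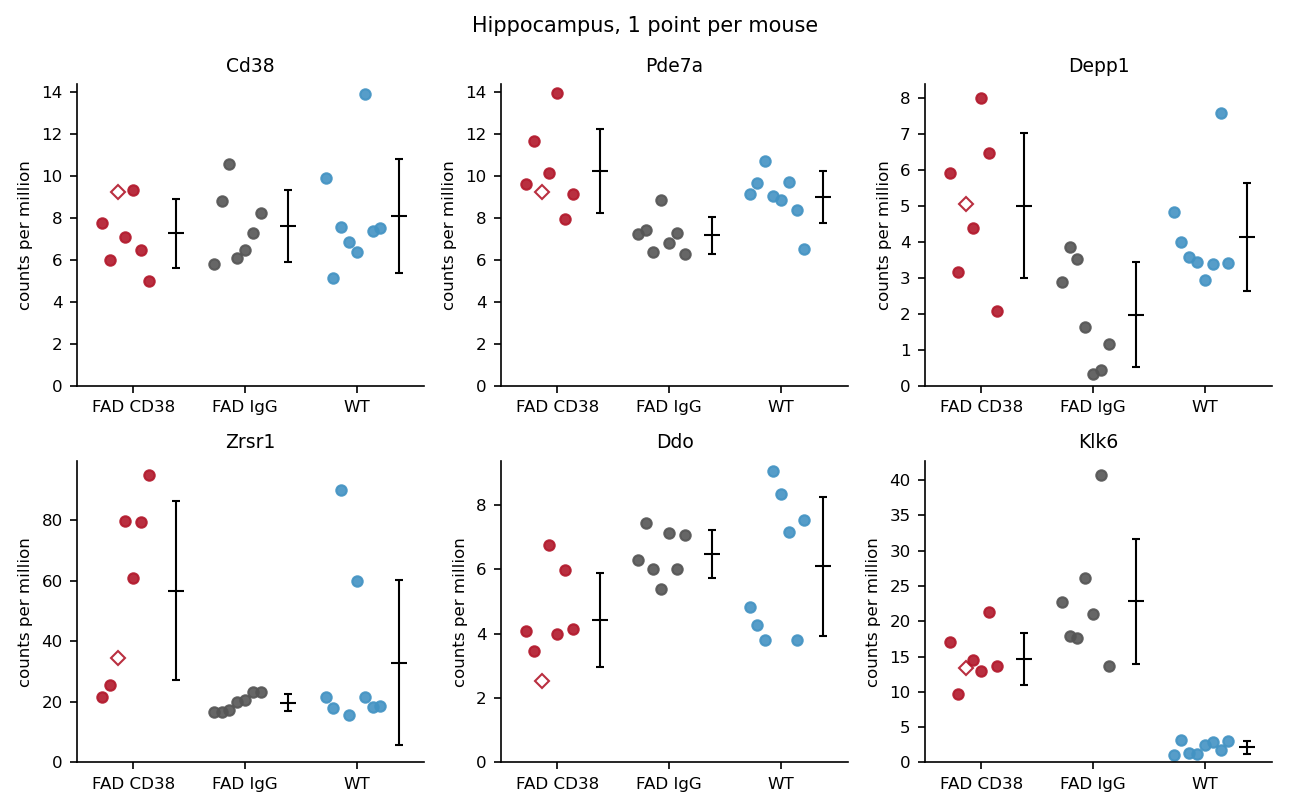
CPM of 6 genes in each hippocampus of the FAD CD38 (n = 7), FAD IgG (n = 7) and WT (n = 8) groups; 1 point is 1 mouse, the bar beside each group is the mean ± SD, and the open diamond is the FAD CD38 mouse of pool 7. Cd38 overlaps throughout, Ddo and Klk6 sit lower and Pde7a, Depp1 and Zrsr1 higher in FAD CD38 than in FAD IgG, with ranges that overlap in every panel.

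The other genes of smallest p among those higher had varied roles. Tmtc2, a mannosyltransferase of the endoplasmic reticulum, averaged 5.22 ± 1.77 CPM in FAD CD38 and 2.44 ± 0.862 CPM in FAD IgG (log2 fold change 1.07 ± 0.33). Vipr1, a receptor for vasoactive intestinal peptide, had 10.9 CPM in the FAD CD38 mouse of pool 7, 1.66 to 4.095 CPM in the others and 0.969 to 2.74 CPM in FAD IgG, and its estimate of 1.10 ± 0.36 was 0.77 without the pool 7 mouse. Atp7a, the copper-transporting ATPase, averaged 7.09 ± 1.95 CPM in FAD CD38 and 4.34 ± 1.03 CPM in FAD IgG (0.65 ± 0.22), higher in 6 of 6 pools. Mfsd13a (0.82), Igsf3 (0.60), Tedc2 (0.58) and Nudt17 (0.48) made up the 10.

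Among those lower, Klk6 had the largest difference between FAD IgG and WT. It encodes a secreted serine protease made by oligodendrocytes. Its lowest, median and highest values were 9.76, 13.7 and 21.4 CPM in FAD CD38, against 13.7, 21 and 40.7 CPM in FAD IgG, and WT averaged 2.13 ± 0.88 CPM. The log2 fold change was -0.64 ± 0.22 (edgeR adjusted p = 0.9998) for FAD CD38 against FAD IgG and 3.45 (adjusted p = 1.3e-08) for FAD IgG against WT. These 2 estimates share the FAD IgG mice. FAD CD38 was lower in 6 of 6 pools, although both mice of pool 11 had 13.7 CPM. All 7 FAD CD38 mice stood below the FAD IgG mean and above the WT range, whose highest value was 3.13 CPM.

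Cav1, the caveolin of endothelial caveolae, had 7.56 to 12.9 CPM in FAD CD38 and 12.6 to 18.0 CPM in FAD IgG, so the ranges met only at their edges. Its log2 fold change was -0.58 ± 0.17 against FAD IgG, and FAD IgG was higher than WT by 0.75 (edgeR adjusted p = 0.0065). Both estimates use the same FAD IgG mice, and Cav1 was picked by its p in the first. Endothelial and mural genes as a list lay near 0, with 5 of 15 above 0 and a median of -0.02. Aldh1a1, a retinaldehyde dehydrogenase, had 21.6 to 43.3 CPM in FAD CD38 and 30.01 to 57.7 CPM in FAD IgG (-0.74 ± 0.23), lower in 5 of 6 pools. In cortex Aldh1a1 was at -0.66 ± 0.22 (edgeR adjusted p = 0.9999).

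Csgalnact2, which starts and extends chondroitin sulfate chains, averaged 5.01 ± 1.97 CPM in FAD CD38 and 8.42 ± 1.72 CPM in FAD IgG (-0.78 ± 0.22). Trp53, the gene of p53, averaged 12.5 ± 2.72 CPM in FAD CD38 and 17.6 ± 3.34 CPM in FAD IgG (-0.51 ± 0.16). Lrp3 (-0.58), Stx2 (-0.54), Rmdn2 (-0.72) and Ccdc177 (-0.62) made up the 10 that were lower. Stx2, a syntaxin, was higher in FAD IgG than in WT by 0.62 (adjusted p = 0.041), a comparison that shares the FAD IgG mice. The ranges of FAD CD38 and FAD IgG overlapped for all 20 of these genes, and all kept their sign without the pool 7 mouse. All 20 were picked by their p with that mouse included, so a kept sign is not separate evidence.

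For 4 genes of 12728 the mice of the groups did not overlap at all. These were picked after their values were seen. Shuffled labels separate 7 from 7 mice with a frequency of 0.000583 per gene, so 4 of 12728 is no more than that would give. Prpf8, the core protein of the spliceosome, had 35.9 to 41.2 CPM in FAD CD38 and 27.1 to 35.2 CPM in FAD IgG. Scrib, a cell polarity scaffold, had 10.4 to 12.9 CPM in FAD CD38 and 8.22 to 9.64 CPM in FAD IgG. The third gene higher was Ino80dos, a non-coding gene whose start overlaps that of Ino80d on the other strand, with 6.62 to 8.45 CPM in FAD CD38 and 3.58 to 6.52 CPM in FAD IgG. Only Slc35g2, of a family of solute carriers, was separated in the lower direction, at 4.48 to 5.67 CPM in FAD CD38 and 6.27 to 8.45 CPM in FAD IgG. The separated genes were 0.0236% of those tested in the higher and 0.00786% in the lower direction, and their adjusted p was 0.9998 in edgeR.

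**Figure D2:**
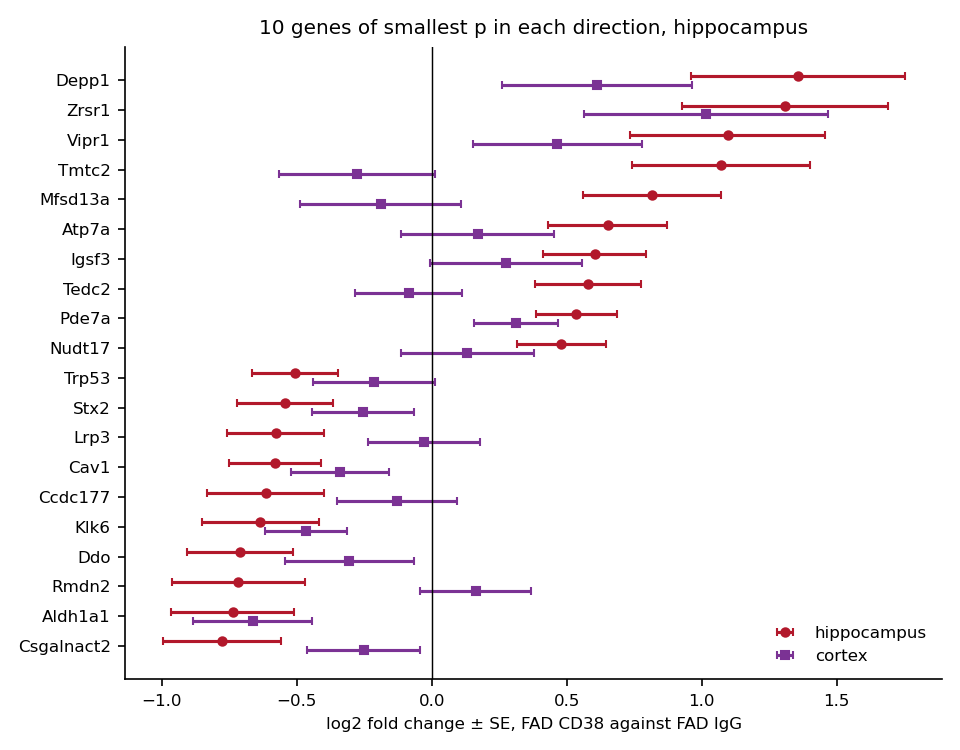
Log2 fold change ± SE of FAD CD38 against FAD IgG for the 10 genes of smallest p in each direction in hippocampus (circles), with the value in cortex of the same mice (squares). The genes were chosen by their hippocampus p, and the values there run from -0.78 for Csgalnact2 to 1.36 for Depp1; in cortex Tmtc2, Mfsd13a, Tedc2 and Rmdn2 lie on the other side of 0.

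Thy1 and App had estimates near 0 between the FAD groups. Thy1, a neuronal surface glycoprotein gene whose counts may include transgene transcripts (this was not tested), averaged 969 ± 211 CPM in FAD CD38 and 934 ± 106 CPM in FAD IgG, against 162 ± 8.64 CPM in WT. The log2 fold change between the FAD groups was 0.04 (95% interval -0.23 to 0.32), beside 2.52 for FAD IgG against WT. App, the amyloid precursor gene, was at -0.04 (-0.39 to 0.32) beside 0.76. Of 14 transgene-related and amyloid processing genes 5 were above 0 and 9 below, with a median of -0.02.

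Microglial genes of the plaque response lay on both sides of 0. Cst7, a cystatin, averaged 186 ± 54.0 CPM in FAD CD38 and 168 ± 32.1 CPM in FAD IgG, against 1.93 ± 1.21 CPM in WT. Its log2 fold change of 0.07 (95% interval -0.38 to 0.53) is small beside the 6.55 between FAD IgG and WT. Trem2, the lipid-sensing receptor, gave 0.11 (-0.29 to 0.52) beside 3.03, and Tyrobp, its signalling adaptor, gave 0.14 (-0.13 to 0.41) beside 2.72. In these 3 genes the FAD CD38 mouse of pool 7 was the lowest of all FAD mice, at 79.8, 103 and 247 CPM. Without it the estimates were 0.24, 0.28 and 0.21, again with no gene called.

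Of 34 disease-associated microglia genes tested 16 were above 0 and 18 below (median -0.02), with 0 called. FAD IgG against WT had 31 of them called higher, where 4.48% of all genes were, and a median of 2.55. For FAD CD38 against FAD IgG without the pool 7 mouse 25 were above 0 and 9 below, and the median was 0.07. Homeostatic microglia genes had 4 above and 16 below 0 (median -0.11), and without that mouse 9 and 11 (median -0.03). In FAD IgG against WT these genes were higher as well, with 18 of 20 called (median 1.42), where 4.48% of all genes were. P2ry12, the purinergic receptor of resting microglia, was at -0.10 (95% interval -0.53 to 0.33), with the pool 7 mouse at 12.6 CPM and the FAD CD38 median at 55.5. Fcgr2b and Fcgr3, receptors for the Fc part of IgG, gave 0.14 (-0.22 to 0.50) and 0.07 (-0.20 to 0.34), beside 3.15 and 2.19 for FAD IgG against WT.

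Astrocyte genes were slightly below 0. Gfap averaged 391 ± 74.4 CPM in FAD CD38 and 449 ± 85.1 CPM in FAD IgG, against 67.4 ± 6.95 CPM in WT. The log2 fold change was -0.21 (95% interval -0.49 to 0.07) and -0.11 without the pool 7 mouse, which at 243 CPM was the lowest FAD value. Of 21 reactive astrocyte genes 12 were below 0 (median -0.08), and of 20 homeostatic astrocyte genes 16 were (median -0.08), the water channel gene Aqp4 at -0.50 (-1.03 to 0.03). Complement genes were below 0 in 10 of 13 cases (median -0.07), with C1qa at -0.08 (-0.42 to 0.25). Apoe, the lipid carrier of glia, was at 0.03 (-0.26 to 0.31).

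**Figure D3:**
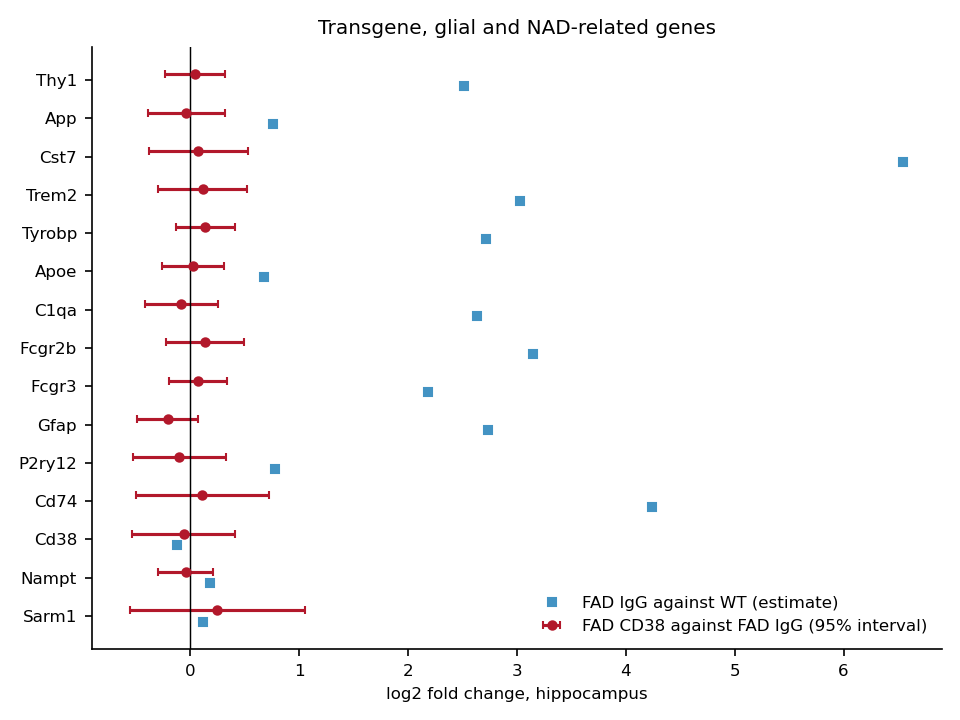
Log2 fold change in hippocampus of FAD CD38 against FAD IgG with its 95% interval (circles) and the estimate for FAD IgG against WT (squares), for transgene-related, glial and NAD-related genes. Every interval of FAD CD38 against FAD IgG includes 0; for Cst7 it runs from -0.38 to 0.53 while the FAD IgG estimate against WT is 6.55.

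The list furthest below 0 among those of 5 or more tested genes was the interferon response, the genes that type I and II interferons induce. All 24 members tested had a lower estimate in FAD CD38, with a median of -0.28 beside 0.01 over all genes, and 0 were called. Its leading member Gbp2, an interferon-induced GTPase, averaged 7.80 ± 3.002 CPM in FAD CD38 and 12.8 ± 5.17 CPM in FAD IgG (-0.77 ± 0.27), and 1 of 24 members was under an unadjusted p of 0.05. Oasl2 (-0.63), Trim30a (-0.59), Gbp3 (-0.51), Usp18 (-0.50) and Ifit3 (-0.40) came next by estimate. The mean level of the list ran from 3.23 to 4.02 log2 CPM in FAD CD38 mice and from 3.38 to 4.36 in FAD IgG mice, so the groups overlapped, and the difference of -0.26 was within the SD of 0.30 in FAD CD38 and 0.36 in FAD IgG.

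All 24 interferon genes were called higher in FAD IgG than in WT (median 1.72), where 4.48% of all genes were. These estimates share the FAD IgG mice. In cortex of the same animals 3 of 23 were above 0 and 20 below (median -0.20). Without the pool 7 mouse the hippocampal median was -0.26 with 2 above 0, and without the wells over 10% ribosomal RNA it was -0.07 with 4 above 0. MHC class I genes, whose expression interferon raises, had 10 of 13 below 0 (median -0.12), with H2-Q7 at -0.83 (-1.65 to -0.02). MHC class II genes were split evenly, with Cd74, the invariant chain, at 0.11 (-0.50 to 0.72). H2-Q7, Ifit3, Gbp2 and Gbp3 belong to families of near-identical genes, so their counts are uncertain.

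Glucocorticoid-induced genes lay mostly above 0. Of 19 tested 18 were higher in FAD CD38, with a median of 0.25 and 0 called, and Per1 was the exception. Depp1 is a member and was known as a leading gene when the list was written. Fkbp5, a chaperone that dampens the receptor, averaged 43.1 ± 13.6 CPM in FAD CD38 and 34.9 ± 7.62 CPM in FAD IgG (0.29 ± 0.20). Sgk1, a kinase, gave 0.25 ± 0.18 and Map3k6 0.66 ± 0.32. The list level was 4.68 to 5.48 log2 CPM in FAD CD38 and 4.58 to 4.94 in FAD IgG, and the highest value was that of the pool 7 mouse. Without that mouse 15 were above 0 and the median was 0.16. In cortex of the same animals, with the pool 7 mouse included, 18 of 18 were above 0 (median 0.33).

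Immediate early genes, which neurons switch on with activity, depended on 1 animal. Of 25 tested 20 were above 0, with a median of 0.28, and the largest estimates were Fosb (1.37 ± 0.76), Nptx2 (1.0 ± 0.62) and Homer1 (0.78 ± 0.36). The list level of the pool 7 mouse was 5.81 log2 CPM, the other FAD CD38 mice had 4.29 to 4.62 and the FAD IgG mice 4.07 to 4.67. Without it the median was 0.07 with 17 above 0. Cdkn1a, the p21 cell cycle inhibitor, behaved likewise, with 200 CPM in that mouse, 20.6 to 31.9 CPM in the other FAD CD38 mice and 21.9 to 26.6 CPM in FAD IgG, and its estimate of 0.63 was 0.11 without it.

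**Figure D4:**
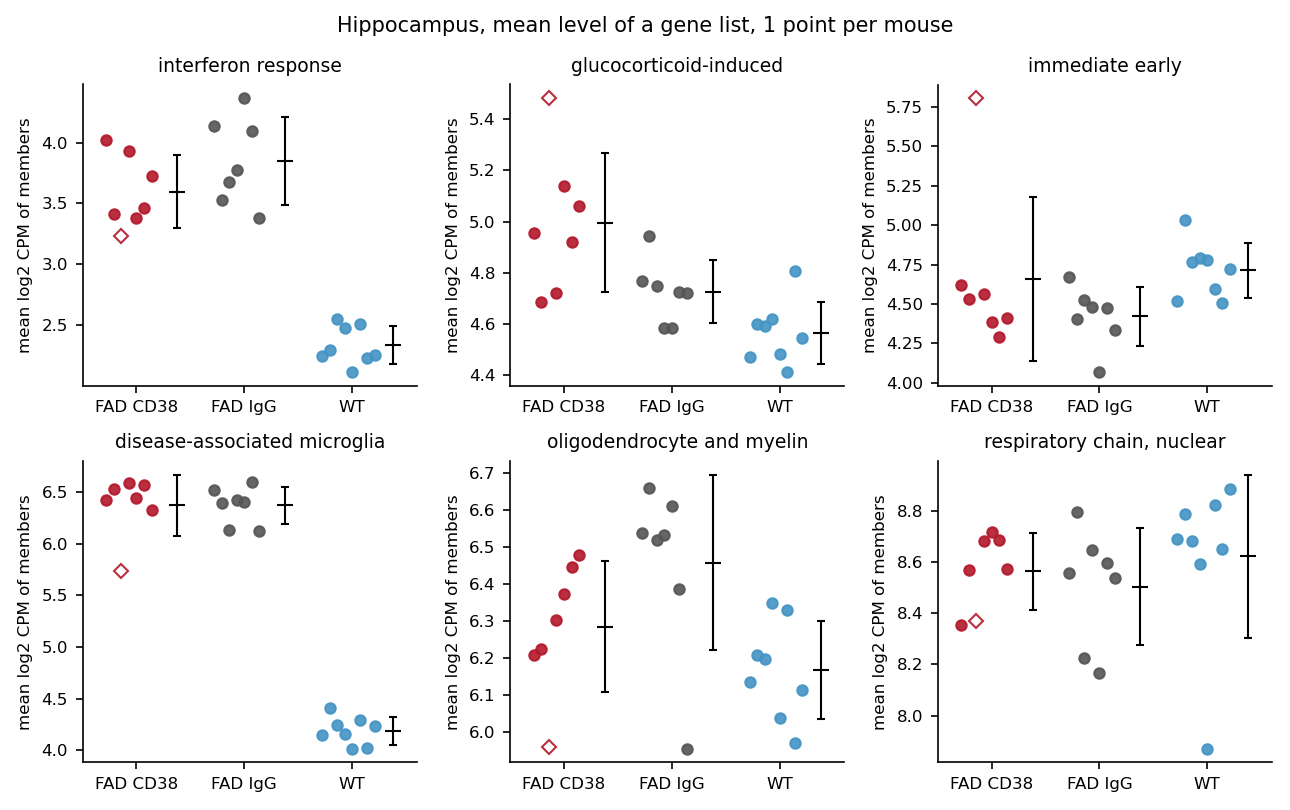
Mean log2 CPM of the tested members of 6 gene lists in each hippocampus, with mean ± SD beside each group; the open diamond is the FAD CD38 mouse of pool 7. That mouse is the highest FAD value for immediate early (5.81) and glucocorticoid-induced genes (5.48) and the lowest for disease-associated microglia (5.74), and FAD CD38 and FAD IgG overlap in each panel.

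Myelin and oligodendrocyte genes were below 0 in 22 of 23 cases, with a median of -0.16 and 0 called. Sox10, the transcription factor of the lineage, averaged 27.0 ± 5.17 CPM in FAD CD38 and 35.5 ± 7.04 CPM in FAD IgG (-0.39 ± 0.15), and the myelin gene Mbp gave -0.15 ± 0.13. Myrf, which turns on myelin genes, was the member above 0, at 0.22 ± 0.22. The list level was 5.96 to 6.48 log2 CPM in FAD CD38 and 5.95 to 6.66 in FAD IgG, where 5 of the FAD IgG mice exceeded every FAD CD38 mouse and the pool 11 mouse was the lowest of all. Without the pool 7 mouse the median was -0.08 with 19 below 0. In cortex of the same animals, with that mouse included, the median was -0.16 and 18 of 23 were below 0.

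Genes of energy metabolism were near 0. Of 73 nuclear genes of the respiratory chain 62 were above 0, by a median of 0.09, and single members ran from -0.12 (Uqcrc2) to 0.26 (Ndufa3). The sign of this list turned with the libraries used, with 71 above 0 (median 0.13) without the pool 7 mouse and 13 above 0 (median -0.05) without the wells over 10% ribosomal RNA. Mitochondrially encoded genes had a median of -0.10, and 0.15 without the pool 7 mouse. Tricarboxylic acid cycle genes (24 tested, median 0.00), glycolysis genes (22, median 0.01), lysosomal genes (29, median 0.02) and fatty acid oxidation genes (17, median -0.05) were not called in any member. Haemoglobin transcripts, a measure of blood in the tissue, gave 0.77 for Hbb-bs to 0.91 for Hba-a2, with summed blood markers of 75.6 to 553 CPM in FAD CD38 and 64.7 to 543 CPM in FAD IgG, and their part in the other values was not tested.

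**Figure D5:**
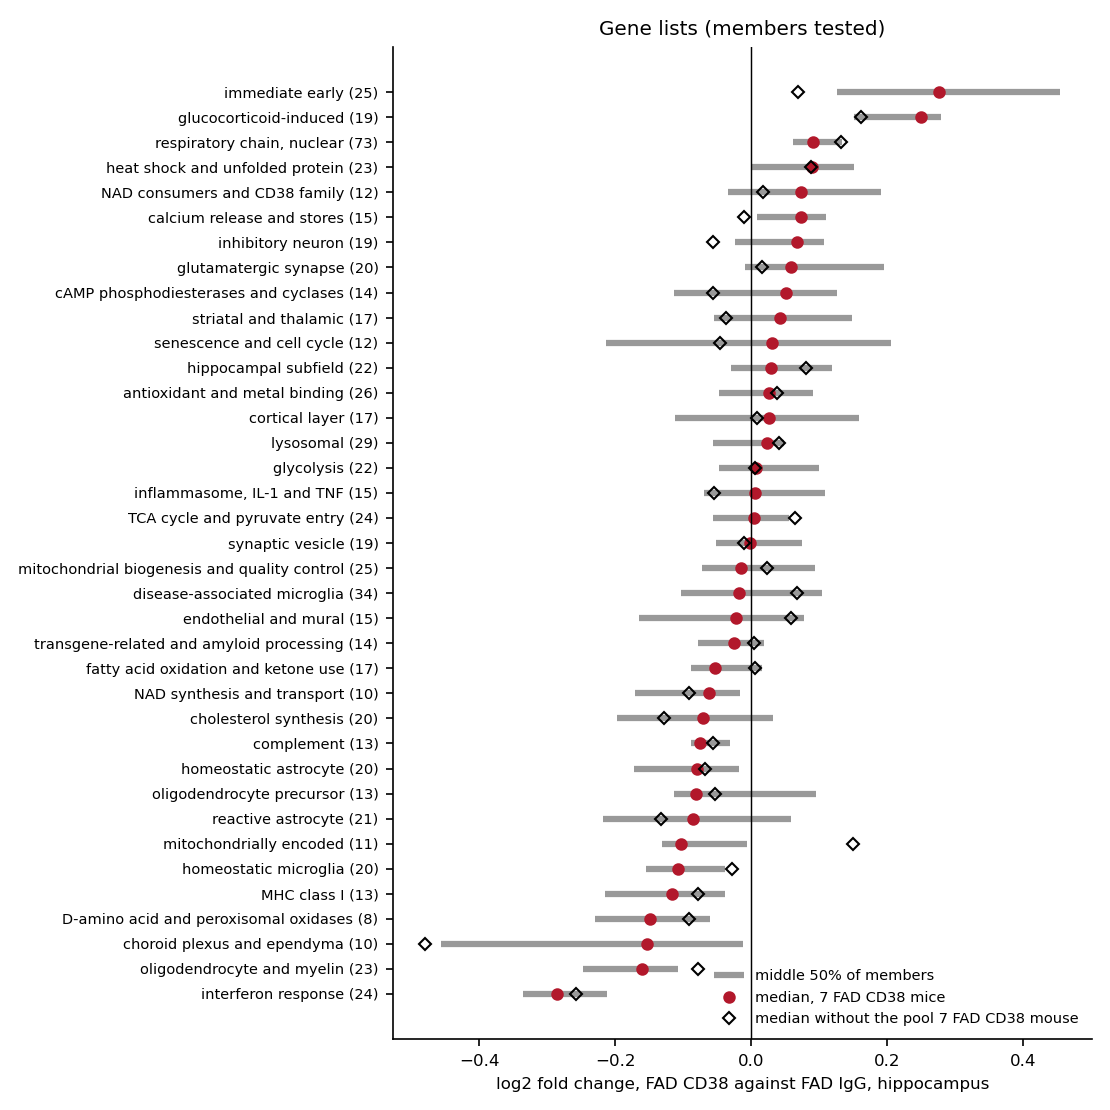
Median log2 fold change of FAD CD38 against FAD IgG in hippocampus for each gene list with at least 8 tested members (circles; number of members in brackets), the middle 50% of its members (bars), and the median without the FAD CD38 mouse of pool 7 (open diamonds). Medians run from -0.28 for the interferon response to 0.28 for immediate early genes, and immediate early genes are at 0.07 without that mouse.

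Cortex of the same mice gave 0 of 12968 genes (0%) called for FAD CD38 against FAD IgG in edgeR, with 195 (1.5%) under an unadjusted p of 0.05. The difference between regions, hippocampus minus cortex, was tested in limma with the mouse as a correlated block. It called 0 of 13447 genes (0%), with 321 under an unadjusted p of 0.05, so none of the differences between regions passed. The genes of smallest p were Atf1, a CREB family transcription factor (difference 0.99, hippocampus 0.73 and cortex -0.24), and on the other side Foxj1, the master regulator of motile cilia (difference -1.16, hippocampus -0.60, not tested in the cortex fit). The others named by the same rule were Cfap43 (1.67), Adat2 (1.01), Tceanc2 (0.63) and E130102H24Rik (1.34) with a positive difference, and Efcab5 (-1.07), Gpr135 (-0.69), Haus1 (-0.60) and Slc25a26 (-0.69) with a negative one. Cfap43 averaged 0.629 CPM in FAD CD38 and 1.54 CPM in FAD IgG cortex, too low to be tested in the cortex fit, and its hippocampus estimate was 0.33 ± 0.31, so the difference rests on few cortex counts. Efcab5 was too low to be tested in the hippocampus fit. Tmtc2 and Mfsd13a, which led in hippocampus, had differences of 1.3 and 1.04.

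Klk6 and Aldh1a1 were the 2 genes of smallest p over the mean of both regions among the 10 named in each direction, a mean added after the data were seen. Their mean log2 fold changes were -0.54 and -0.70 (limma, adjusted p = 1 for both). Zrsr1 (1.13), Pde7a (0.41), Depp1 (0.94) and Cav1 (-0.46) came next among them. Ddo was at -0.31 ± 0.24 in cortex and -0.50 over the mean. None of 13447 genes was called over the mean in limma, and 247 were under an unadjusted p of 0.05.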

How the data were processed

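Bulk mcSCRB-seq libraries of hippocampus and cortex were analysed from the deposited table, raw counts per gene and well. Per the submitters' processing notes the authors used bcl2fastq 2.17 and STAR 2.5.3a; the genome build, annotation, counting program, strand setting and handling of molecular identifiers were not given in the sources used here. Each deposited sample is a pool, so region, genotype, injection, mouse and pool came from well names and the sample sheet. The replicate was the mouse. Genes of the types rRNA and Mt_rRNA in GENCODE M21 gave the ribosomal RNA share; 97.85% of the symbols were found there.

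Counts of each region (all 3 groups) were fitted in edgeR 4.0.16 and R 4.3.3 with TMM factors, filterByExpr (minimum count 10, total 15), the pool as an additive term and robust two-sided quasi-likelihood tests, with a Benjamini-Hochberg threshold of 0.05. CPM are counts scaled to the TMM-adjusted total; log2 CPM used a prior count of 2. SEs and 95% intervals come from the quasi-likelihood F. The region difference and the mean of regions used limma 3.58.1 (voom, mouse as a correlated block); DESeq2 1.42.0 was an alternative. Totals, RNA shares and Cd38 were compared by exact permutation over mice, without regard to pool. With 1428454 to 4115439 counts per FAD well, a gene at 5 CPM has few counts, and intervals there are wide. The code was tested on simulated data. For FAD CD38 against FAD IgG in hippocampus it recovered 8 of 67 genes changed 1.5-fold and 55 of 67 changed 2-fold. At 4-fold it recovered 66 of 66, and it made 7 false calls. A change of 1.5-fold would thus mostly be missed. Recovery after adjustment depends on how many genes change, so these shares are not the power in these data. In the reported fit Depp1 and Zrsr1 had log2 fold changes of 1.36 and 1.31, with an edgeR adjusted p of 0.9998. Of 42 replicate pairs within groups none repeated another (lowest chi-square per degree of freedom 4.308).

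The named genes were the 10 of smallest p in each direction, up to 2 leading members of lists with a member at p under 0.01, 20 check genes and 5 genes in each direction for the region difference. These genes, the 40 lists and the tests were chosen with earlier results of these data known. Alternatives were other tools, scalings and filters, ribosomal RNA share as a covariate or limit, the mouse of conflicting labels in either group, and each pool or mouse left out.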

Additional observations from a re-analysis of the deposited data

Results flagged for a closer look

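In 188 groups of 7 values the highest or lowest was tested against the rest by Dixon's ratio, and 34 values lay further out than its 95% limit for 7 samples. Chance puts about 1 in 20 groups past that limit, and these values are not independent, since 27 come from the FAD CD38 mouse of pool 7. In that library the ribosomal RNA share was 17.2%, the mitochondrial share 1.27% and the share of the 10 highest genes 28.5%.

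The same mouse was lowest of the FAD CD38 group for the glial and neuronal genes Thy1 (520.1 CPM), Cst7 (79.81), Trem2 (103.3), Tyrobp (247), Gfap (242.8) and P2ry12 (12.6). It was also lowest for Ccdc177 (1.68 CPM), Slc25a26 (1.68) and Efcab5 (0), and highest for Cdkn1a (200 CPM), E130102H24Rik (14.28) and Ttr (18550). Its mean log2 CPM was the lowest of the group for disease-associated microglia (5.74), homeostatic microglia (4.87), homeostatic astrocytes (6.77), Fc gamma receptors (4.65), endothelial and mural genes (3.95), hippocampal subfields (4.53), tricarboxylic acid cycle genes (6.22) and mitochondrially encoded genes (8.91). For immediate early (5.81), senescence and cell cycle (5.34), striatal and thalamic (4.19) and choroid plexus genes (5.06) it was the highest. Which of its low RNA quality measures moved with which genes was not tested. The cortex well of this mouse stood apart for some of these genes too. It had the highest Cdkn1a (413.7 CPM) and the lowest P2ry12 (18.41) and Cst7 (97.38) of the FAD cortex wells. Its cortex values of Thy1 (751.9 CPM), Gfap (190.4) and Ttr (82.85) were not extremes of the FAD CD38 group. What the 2 wells have in common was not tested.

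Among FAD IgG mice, the pool 9 mouse stood apart for Ttr (9378 CPM), the choroid plexus list (4.84 log2 CPM), C1qa (189.3 CPM) and Efcab5 (1.292 CPM), with a ribosomal RNA share of 15.3%. Fcgr3 was highest in the FAD IgG mouse of pool 5 (107.4 CPM), Map3k6 lowest in replicate 3 of pool 6 (1.059 CPM), and myelin genes lowest in the pool 11 mouse (5.95 log2 CPM).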

How the results depend on the processing

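No gene was called for FAD CD38 against FAD IgG in hippocampus under any of 33 alternatives or over the mean of both regions. At an unadjusted p under 0.05 they gave 150 to 1057 genes. This share was 1.55% in the reported fit, 5.87% with the ribosomal RNA share as a covariate (smallest adjusted p = 0.37), 5.85% without wells over 10% ribosomal RNA (0.804) and 8.3% in limma voom with sample quality weights (0.188, Csgalnact2 and Tmtc2); the cause was not tested. The 20 leading genes kept their direction under every alternative that tested them, Ddo at -0.86 to -0.50, Pde7a at 0.41 to 0.60 and Depp1 at 0.94 to 1.97. They were picked by their p in wells that the alternatives mostly reuse, so a kept direction is not separate evidence. Of 1280 list medians under alternatives 1275 moved by less than the SD between mice. That limit is wide for medians this near 0. A median could change sign within it, as that of the respiratory chain did. Replicate numbers pair no mice, so no fit used them as a block; the pool, which holds mice of both groups in 6 cases, was a term in every fit except those that left it out. FAD IgG against WT had 53 genes lower, 149 in DESeq2 and 31 with no filter on low counts.

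Some estimates changed sign, none of them called. Among them Ttr (-1.03), Cfap43 (0.33), Slc25a26 (-0.33), Sarm1 (0.25) and Tceanc2 (0.21) were not near 0 in the reported fit. With the pool left out, App was at 0.0094 and Ttr at 0.96. With only the 2 groups compared, Nampt was at 0.0040, App at 0.035 and Apoe at -0.035. With quality weights App was at 0.058 and C1qa at 0.075, and with the ribosomal RNA covariate App was at 0.0097. Without wells over 10% ribosomal RNA App was at 0.14, P2ry12 at 0.084 and C1qa at 0.20. With the mouse of conflicting labels as IgG, App was at 0.020 and Cd74 at -0.16. Without pool 6 Cd38 was at 0.18, Thy1 at -0.012, Cst7 at -0.055, Apoe at -0.0014, Cd74 at -0.016, Fcgr3 at -0.0042 and Adat2 at -0.0095. Without pool 7 Sarm1 was at -0.074 and P2ry12 at 0.092, without pool 8 App at 0.018 and Apoe at -0.025, and without pool 11 Cd38 at 0.040. Without pool 9 Thy1 was at -0.012, App at 0.067, C1qa at 0.091 and Ttr at 0.30. The Cd38 level difference was 0.11 without pool 6 (exact permutation p = 0.483) and 0.037 without pool 11 (p = 0.81). Over the mean of both regions Cst7 was at -0.038, Trem2 at -0.025, Apoe at -0.080, Ttr at 0.33, Cfap43 at -0.43, Adat2 at -0.32, Tceanc2 at -0.062 and Slc25a26 at 0.0025. Leaving out 1 mouse at a time, Cd38 ran from -0.21 to 0.028, Sarm1 from -0.054 to 0.46, Thy1 from -0.0095 to 0.16, App from -0.14 to 0.062 and Apoe from -0.025 to 0.094. P2ry12 ran from -0.18 to 0.086, C1qa from -0.17 to 0.091, Cd74 from -0.020 to 0.31 and Ttr from -2.22 to 0.20.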

Other observations

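Neuronal and stress lists that no comparison above turns on were near 0 in FAD CD38 against FAD IgG hippocampus. Synaptic vesicle genes had 9 of 19 above 0 (median 0.00) and glutamatergic synapse genes 14 of 20 (median 0.06), with 20 of 20 (median 0.21) once wells over 10% ribosomal RNA were left out. Of 15 genes for the release and storage of calcium, the messenger system fed by CD38 products, 11 were above 0 with a median of 0.07, and the channel gene Ryr3 was furthest, at 0.45. Heat shock and unfolded protein genes had 17 of 23 above 0 (median 0.09), and cholesterol synthesis genes 14 of 20 below 0 (median -0.07). No member of these lists was called.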
